A study of Homo sapiens with 8 samples.

Results

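The hnRNP, SR and snRNP proteins are the main RNA-binding proteins of pre-mRNA splicing, and their transcripts were followed in A549, an established cell line from a human lung adenocarcinoma. Genes were taken by symbol: those that begin with HNRNP, SNRNP or SNRP, and the numbered SRSF genes, without pseudogenes, antisense genes or SNRPN. Of 57820 genes in the deposited tables, 54 were members, and 52 of them had enough counts to be tested. They fell into 23 hnRNP genes, 13 SR genes, 7 genes of the Sm core and 11 genes of other proteins of the snRNP particles. The symbol SRSF8 stands on 2 gene IDs, so the 54 members carry 53 symbols.

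The libraries form 2 experiments with 2 libraries in each of 4 groups, each with a replicate A and a replicate B. In the first, cells received siMYC, an siRNA against the MYC oncogene, or siNC, its control siRNA. In the second, cells overexpressed MGA or carried an empty vector; MGA binds DNA as a partner of MAX, with which MYC also pairs. The sources used here do not give the siRNA sequences, the promoter of the vector, the times of harvest or whether A and B are separate cultures.

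In the cell, hnRNP proteins coat nascent transcripts and often silence splice sites, while SR proteins bind exonic enhancers and recruit the splicing machinery through a domain rich in arginine and serine. The Sm proteins form a ring around most spliceosomal snRNAs, and further proteins specific to the U1, U2, U5 or minor particles complete each snRNP. MYC with MAX binds the E-box CACGTG, and MGA carries a domain that also binds E-boxes with MAX beside a T-box DNA-binding domain. Genes of the splicing machinery have been described as MYC targets in other systems.

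Promoter sequence was read for the members because the factors manipulated here bind DNA at such motifs. The RefSeq promoter table (build GRCh38.p14), which spans 250 bases before and 50 bases from each start, held 49 of the 53 member symbols; HNRNPA1, SRSF2, SNRPD1 and SNRNP35 were not matched. In the first window listed for each symbol, the E-box CACGTG, which reads the same on both strands, was present in 8 of 49 members (16.3%) and in 2030 of all 27305 promoters (7.43%). Of those 8 members 7 were hnRNP genes, out of 22 hnRNP promoters (31.8%), and 1 was the minor snRNP gene SNRNP48. None of the 11 SR promoters and none of the 6 Sm core promoters held it. The T-box element AGGTGTGA, searched on both strands, was found in 0 members and in 0.982% of all promoters. Over every listed start, CACGTG was in 9 of 68 member windows (13.2%) and in 7.26% of 35116 windows. All promoters here include those of genes that were not tested, and the share over tested genes alone was not counted. The windows of HNRNPUL2 and HNRNPUL2-BSCL2 overlap and are counted separately. The 150 bases before the start are shown for the SR gene SRSF6, which had the lowest siMYC fold change among the members, and for the hnRNP genes HNRNPD, HNRNPA3 and HNRNPH2, which hold E-boxes; capitals mark CACGTG. HNRNPH2 was added after its values were seen. The naming rule also picked HNRNPAB, SNRPF and SNRNP25, which hold no CACGTG in their windows and are not printed. The stretches are written 5′ to 3′ on the strand of the gene.
SRSF6, chr20:43457746-43457895, plus strand: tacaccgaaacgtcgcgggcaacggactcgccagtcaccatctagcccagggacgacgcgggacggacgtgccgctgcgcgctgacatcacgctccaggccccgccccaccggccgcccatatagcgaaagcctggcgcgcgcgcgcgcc
HNRNPD, chr4:82373992-82374141, minus strand: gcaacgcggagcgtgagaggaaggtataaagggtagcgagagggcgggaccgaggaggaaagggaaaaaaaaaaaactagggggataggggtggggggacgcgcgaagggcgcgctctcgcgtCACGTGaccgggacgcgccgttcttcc
HNRNPA3, chr2:177212644-177212793, plus strand: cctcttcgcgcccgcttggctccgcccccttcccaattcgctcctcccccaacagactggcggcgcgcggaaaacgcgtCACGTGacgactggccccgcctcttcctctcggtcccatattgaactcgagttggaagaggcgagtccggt
HNRNPH2, chrX:101408072-101408221, plus strand: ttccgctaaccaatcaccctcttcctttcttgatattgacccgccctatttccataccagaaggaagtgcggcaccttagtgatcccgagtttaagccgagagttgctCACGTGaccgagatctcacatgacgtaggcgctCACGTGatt

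The E-box began 27 bases before the start in HNRNPD and 71 bases before it in HNRNPA3. HNRNPH2 held 2, at 42 and 9 bases before the start. The other E-boxes lay 42 bases before the start in HNRNPM, 50 in HNRNPH3, 156 in HNRNPDL and 33 in SNRNP48, and 23 bases after it in HNRNPUL1. CACGTG was present in 5 of 32 matched members that were lower with siMYC (15.6%) and in 3 of the 17 others (17.6%). The others include HNRNPCL1 and SRSF12, which were not tested with siMYC and hold no CACGTG. A match describes these letters in these windows, not binding.

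Library depth was modest, with 820428 to 2129006 total expected counts. It differed between the experiments, with 820428 to 1176890 in empty vector and MGA libraries and 1398805 to 2129006 in siNC and siMYC libraries. The numbers of calls in the 2 comparisons were therefore not obtained at equal depth. The manipulated genes matched the labels. MYC stood at 36.8 and 31.4 TPM in siMYC libraries, against 152.4 and 129.9 TPM in siNC libraries. The MGA gene took 9.54% and 9.68% of the counts with MGA and at most 0.0124% in the other libraries. Of 7 markers of A549, the keratins KRT8 and KRT18 and the enzymes AKR1B10, AKR1C2 and ALDH1A1 were at 581.1 TPM or more in every library, KRT19 ran between 9.18 and 154.7 TPM, and EPCAM between 0 and 14.85 TPM, at 0 in both MGA libraries and in empty vector A. The 7 summed to 5782 and 5863 TPM in MGA libraries, against 7128 and 7216 TPM in empty vector libraries. The sum was 18040 and 19960 TPM in siMYC libraries, against 15530 and 16990 TPM in siNC libraries, and its part in the results was not tested. The leukocyte genes PTPRC and CD3E and the endothelial genes PECAM1 and VWF were at 0 in every library. The 2 fibroblast markers COL1A1 and COL3A1 summed to 86.1 and 87.7 TPM in siMYC libraries, against 7.85 and 19.8 TPM in siNC libraries, nearly all of it COL1A1; the part of this in the results was not tested. In bulk RNA, fewer cells of a kind and less RNA per cell cannot be told apart, and each level is a share of its library's transcripts.

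As families, all 4 took a smaller share of the transcriptome with siMYC than with siNC. The hnRNP genes held 0.803% and 0.814% of expected counts in siMYC libraries, against 1.10% and 1.12% in siNC libraries, a ratio of group means of 0.728. The SR genes held 0.153% and 0.158% with siMYC, against 0.229% and 0.225% with siNC, a ratio of 0.684. The Sm core held 0.0688% and 0.0771% with siMYC, against 0.107% and 0.109% with siNC, and its ratio was the lowest of the 4, at 0.676. The particle proteins held 0.0942% and 0.0959% with siMYC, against 0.119% and 0.132% with siNC, a ratio of 0.759. In none of the families did the siMYC libraries overlap the siNC libraries.

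With MGA the shares of expected counts were lower too, but the MGA transcript itself fills a large part of those libraries. The hnRNP genes held 0.696% and 0.693% of counts in MGA libraries, against 0.863% and 0.831% in empty vector libraries. When the MGA gene was left out of the totals, the hnRNP share was 0.770% and 0.767% in MGA libraries, still below both empty vector libraries. The SR share without the MGA gene was 0.211% and 0.209% in MGA libraries, against 0.212% and 0.219% in empty vector libraries, values that lie next to each other. The Sm core share without the MGA gene was 0.0659% and 0.0649% with MGA, against 0.0751% and 0.0741% with the empty vector. The particle protein share without the MGA gene was 0.0933% and 0.0952% with MGA, against 0.0989% and 0.104% with the empty vector. In summed TPM, which is corrected for length, the hnRNP genes had 6921 and 6779 with MGA, against 7396 and 7079 with the empty vector. The means of these sums were 6850 with MGA and 7238 with the empty vector. HNRNPA1 alone averaged 729.6 TPM with MGA and 1192 TPM with the empty vector, a larger drop than that of the whole hnRNP sum. The hnRNP sum is thus not evidence of a fall across the family. The other families overlapped in summed TPM. The SR sums were 1903 and 1969 with MGA, against 1809 and 1941. The Sm core sums were 1805 and 1541, against 1756 and 1673, and the particle sums 966.9 and 878.9, against 918.2 and 982.1. With 2 libraries a group, an exact permutation test of a single value cannot give a p below 0.333, so the family sums carry no test.

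**Figure D1:**
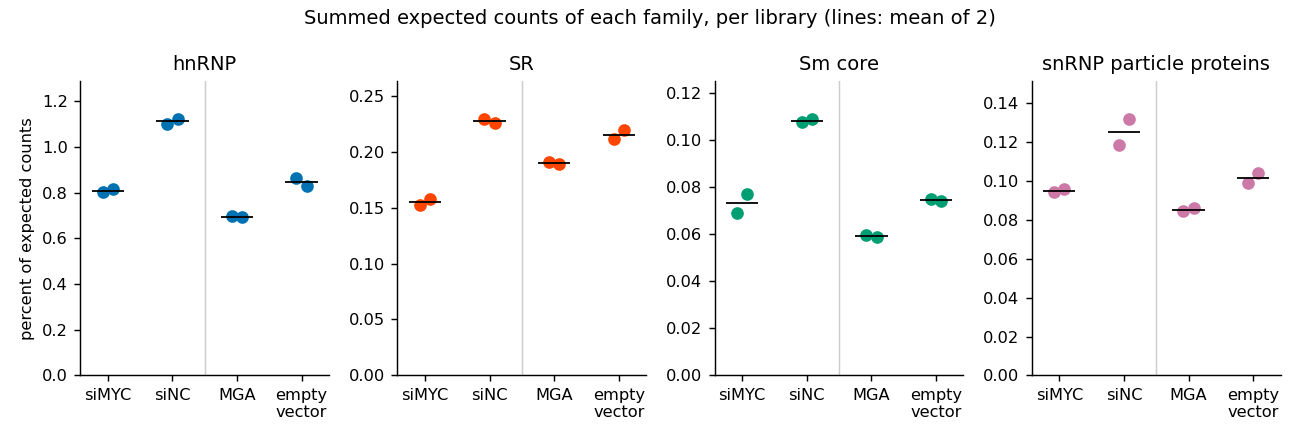
Summed expected counts of each family as a percent of all expected counts, 1 point per library with a line at the mean of 2, for siMYC, siNC, MGA and empty vector. The siMYC points lie below the siNC points in all 4 panels; the MGA points include the MGA gene in the total.

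Levels corrected for length (TPM, transcripts scaled to a fixed total per library) spanned a wide range among the members. HNRNPA1, a shuttling splicing repressor, averaged 1168 TPM over the 8 libraries, between 724.6 and 1632 TPM. HNRNPA2B1, its close relative, averaged 1111 TPM, and HNRNPC, which binds uridine tracts, averaged 885.8 TPM. The ranges of these 3 overlapped, so their order is not fixed across libraries. The Sm genes SNRPD2 and SNRPB came next, at 591.9 and 583.6 TPM. The lowest tested members were the 2 SRSF8 genes, at 6.49 and 5.25 TPM. SRSF12, an SR gene, had at most 9 expected counts in a library and was not tested. HNRNPCL1, a copy of HNRNPC, was at 0 expected counts in every library and was not tested either.

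With siMYC, 35 of the 52 tested members (67.3%) fell and 1 rose. Over all 11218 tested genes, 20.0% fell and 19.0% rose in the same fit (edgeR quasi-likelihood test, Benjamini-Hochberg adjusted p under 0.05 over all genes). The median log2 fold change of the members was -0.52, beside 0.01 for all genes. The siMYC and siNC libraries did not overlap for 46 of the 52 members (88.5%), 43 of them lower and 3 higher with siMYC, beside 67.6% of all genes. Of the 35 falls, only SRSF6 and SNRPF were 2-fold or more. A limma-trend fit of TPM called 16 of the members lower, beside 4.78% of all genes, and DESeq2 called 24, beside 8.97%.

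Among the hnRNP genes 14 of 22 tested fell with siMYC, with a median log2 fold change of -0.46. HNRNPAB, an RNA- and DNA-binding protein of the A/B type, had 222.4 and 246.1 CPM (normalised read counts scaled to library size) in siMYC libraries, against 424.4 and 484.0 CPM in siNC libraries. The 2 groups were far apart, at a ratio of 0.513 between their means, and its log2 fold change was -0.96 (edgeR adjusted p = 2.5e-08, SE 0.10). HNRNPA1 had 824.0 and 913.1 CPM with siMYC, against 1412 and 1433 CPM with siNC. Its log2 fold change was -0.71 (adjusted p = 3.0e-08, SE 0.08), the second smallest p of the family. HNRNPF, which binds guanine tracts, had 217.4 and 245.5 CPM with siMYC, against 391.5 and 383.7 CPM with siNC, and fell by 0.75 on the log2 scale (adjusted p = 3.4e-07, SE 0.09).

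The other hnRNP falls were smaller or similar. HNRNPH3, a relative of HNRNPF, and HNRNPD, which binds AU-rich mRNA elements and speeds decay, changed by log2 fold changes of -0.71 and -0.70. HNRNPU, a nuclear scaffold protein, changed by -0.61, HNRNPC by -0.59, HNRNPA3 by -0.59 and HNRNPA2B1 by -0.56. HNRNPH1 and HNRNPDL both changed by -0.52. The smallest falls that passed were those of HNRNPL, which binds CA repeats, at -0.41, of HNRNPK, which binds cytosine tracts, at -0.34 and of HNRNPM at -0.32.

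Of the tested hnRNP genes 7 did not pass in either direction: HNRNPA0, HNRNPA1L2, HNRNPLL, HNRNPR, HNRNPUL1, HNRNPUL2 and the read-through model HNRNPUL2-BSCL2. HNRNPLL, a splicing regulator known from lymphocytes, was nearest to no change, at 61.1 and 58.9 CPM with siMYC, against 55.0 and 62.4 CPM with siNC. Its log2 fold change was 0.03 (95% interval -0.29 to 0.35). Reads of HNRNPUL2 and HNRNPUL2-BSCL2 overlap and their split is uncertain, as is that of HNRNPA1L2 with HNRNPA1.

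HNRNPH2, a paralog of HNRNPH1 on the X chromosome, went the other way. It had 122.2 and 131.3 CPM in siMYC libraries, against 100.7 and 99.1 CPM in siNC libraries, a log2 fold change of 0.34 (edgeR adjusted p = 0.033, SE 0.13). The groups did not overlap, but the call rests on all 4 libraries. The adjusted p was 0.051 without siMYC replicate A, 0.14 without siMYC replicate B, 0.084 without siNC replicate A and 0.16 without siNC replicate B. It was also lost with no filter on low counts, with DESeq2 and on TPM. Its paralog HNRNPH1 had 371.8 and 360.2 CPM with siMYC, against 520.8 and 528.3 CPM with siNC.

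**Figure D2:**
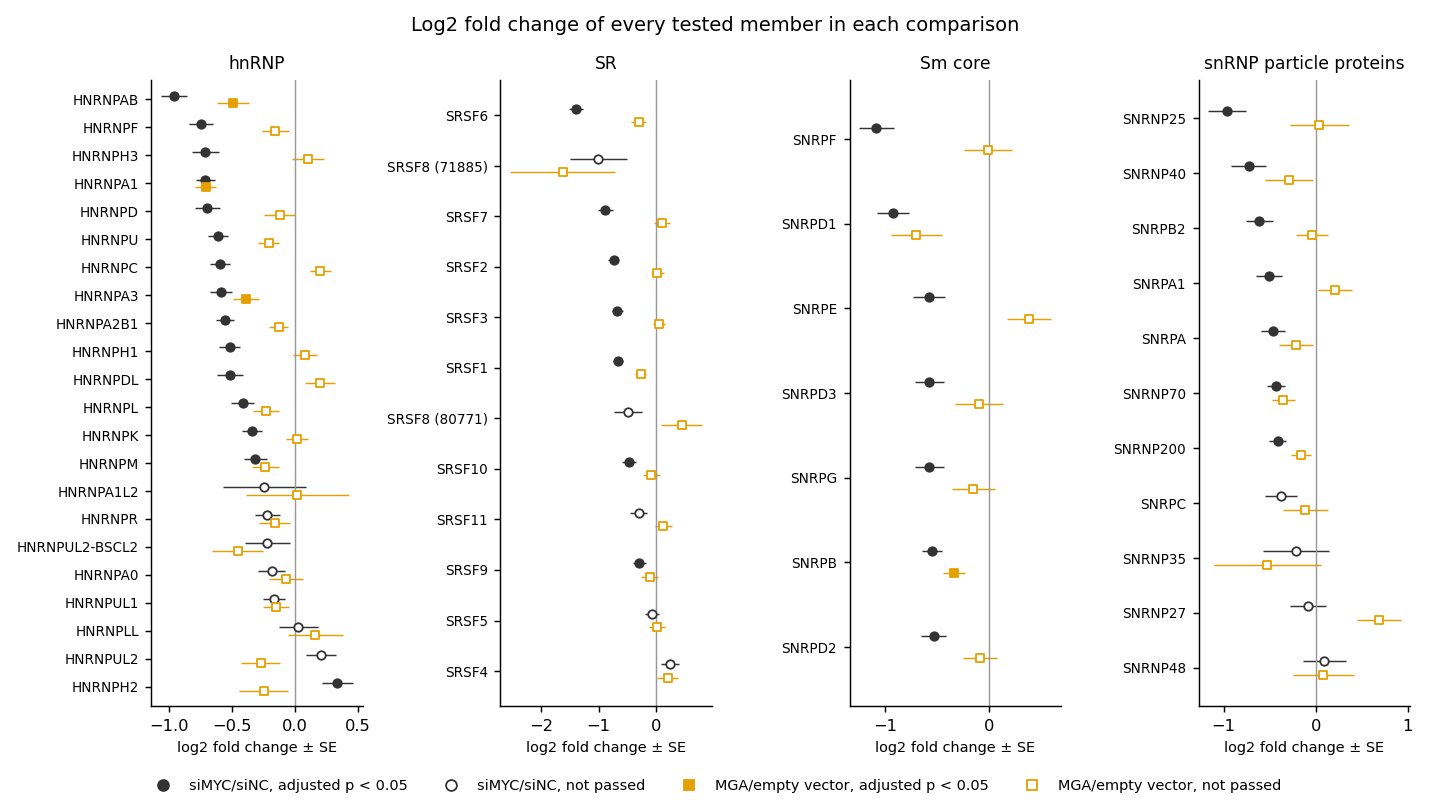
Log2 fold change with its standard error for all 52 tested members, by family: black circles give siMYC over siNC and orange squares MGA over empty vector, filled where the edgeR adjusted p is under 0.05. Black filled points lie left of 0 in every family except HNRNPH2, and 4 orange squares are filled; the 2 SRSF8 genes are told apart by the last digits of their IDs.

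Among the SR genes 7 of 12 tested fell with siMYC and none rose, with a median log2 fold change of -0.58. SRSF6, an SR protein of exonic enhancers, had 82.3 and 96.4 CPM in siMYC libraries, against 230.0 and 233.3 CPM in siNC libraries. Its level with siMYC was 0.383 of that with siNC, and its log2 fold change of -1.38 (edgeR adjusted p = 6.6e-10, SE 0.12) was the largest fall of all members. SRSF2, which also binds exonic enhancers, had 206.8 and 249.8 CPM with siMYC, against 372.9 and 383.7 CPM with siNC, a log2 fold change of -0.74 (adjusted p = 1.2e-06, SE 0.10). SRSF1, the prototype of the family, had 272.1 and 278.0 CPM with siMYC, against 460.8 and 410.5 CPM with siNC, a log2 fold change of -0.66 (adjusted p = 1.4e-06, SE 0.09).

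SRSF7 and SRSF3, which resemble each other in their RNA-binding domain and also link splicing to mRNA export, had log2 fold changes of -0.88 and -0.68. SRSF7 had 80.9 and 103.1 CPM in siMYC libraries, against 175.0 and 161.5 CPM in siNC libraries. SRSF10 changed by -0.47 and SRSF9 by -0.29, the smallest fall of the family that passed. The call of SRSF9 was lost without each of the 4 siRNA libraries in turn (adjusted p = 0.056 to 0.13) and with each other set of size factors (adjusted p = 0.067 to 0.070). SRSF5 was nearest to no change, at 165.9 and 161.4 CPM with siMYC, against 155.0 and 187.8 CPM with siNC, with a log2 fold change of -0.07 (95% interval -0.31 to 0.16).

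SRSF4, which is close to SRSF5 and SRSF6 in sequence, had 72.6 and 74.9 CPM with siMYC, against 65.0 and 60.1 CPM with siNC. Its log2 fold change of 0.24 did not pass (adjusted p = 0.22). SRSF11 had a log2 fold change of -0.30 and did not pass (adjusted p = 0.0996). Neither SRSF8 gene passed; RSEM divided reads between them, with 36.67 and 13.33 expected counts in siMYC replicate A, so each of their values is uncertain.

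All 7 Sm core genes fell with siMYC, with log2 fold changes between -1.08 and -0.53 and a median of -0.58. SNRPF, which encodes Sm protein F, had 32.2 and 38.7 CPM in siMYC libraries, against 79.3 and 70.0 CPM in siNC libraries, a log2 fold change of -1.08 (edgeR adjusted p = 6.1e-06, SE 0.16). SNRPD1 had 47.8 and 46.6 CPM with siMYC, against 90.0 and 89.2 CPM with siNC, a log2 fold change of -0.92 (adjusted p = 2.0e-05, SE 0.15). SNRPB, which encodes the B and B′ proteins, had 280.3 and 327.1 CPM with siMYC, against 429.4 and 454.9 CPM with siNC, a log2 fold change of -0.55 (adjusted p = 2.8e-05, SE 0.09).

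The other 4 Sm genes lay close together, with log2 fold changes of -0.58 for SNRPD3, -0.58 for SNRPE, -0.57 for SNRPG and -0.53 for SNRPD2. The siMYC libraries overlapped the siNC libraries for none of the 7, beside 67.6% of all genes without overlap. The call of SNRPE was lost without siNC replicate B (adjusted p = 0.15) and without siMYC replicate A (adjusted p = 0.059). DESeq2 called 4 of the 7 and a limma-trend fit of TPM called 3, in the same direction.

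Of the 11 particle proteins 7 fell with siMYC, with a median log2 fold change of -0.43. SNRNP70 of the U1 particle had 216.9 and 238.1 CPM in siMYC libraries, against 286.5 and 324.8 CPM in siNC libraries, a log2 fold change of -0.43 (edgeR adjusted p = 0.0011, SE 0.10). SNRPA, also of U1, changed by -0.46, and SNRPA1 and SNRPB2, which form a pair in U2, by -0.51 and -0.61. SNRPC, the third U1 protein, had a log2 fold change of -0.38 and did not pass (adjusted p = 0.091).

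In the U5 particle, SNRNP200, the helicase that unwinds paired U4 and U6 snRNA, had 335.5 and 320.9 CPM with siMYC, against 405.8 and 466.5 CPM with siNC, a log2 fold change of -0.41 (adjusted p = 9.2e-04, SE 0.09). SNRNP40, another U5 protein, changed by -0.73; its call was lost without siNC replicate B (adjusted p = 0.097) and without siMYC replicate A (adjusted p = 0.072). SNRNP27, a protein of the tri-snRNP, was nearest to no change, at 29.9 and 36.2 CPM with siMYC, against 33.6 and 35.6 CPM with siNC, with a log2 fold change of -0.08 (95% interval -0.48 to 0.31).

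Of the 3 proteins of the minor U11 and U12 particles 1 fell. SNRNP25 had 25.7 and 22.1 CPM in siMYC libraries, against 43.6 and 50.2 CPM in siNC libraries, a log2 fold change of -0.96 (edgeR adjusted p = 4.2e-04, SE 0.20). SNRNP35 and SNRNP48 had log2 fold changes of -0.22 and 0.09, and neither passed, at adjusted p of 0.68 and 0.79. All 3 had low counts, and the difference between them was not tested. DESeq2 called 2 of the 11 particle proteins lower and a limma-trend fit of TPM called 1.

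With MGA, the members moved less: 4 of 52 (7.69%) fell and none rose, beside 4.0% of all genes lower and 4.96% higher. At an unadjusted p under 0.05, 12 members were lower and 2 higher, beside 1151 lower and 1348 higher of all 11218 genes. The median log2 fold change was -0.11, beside 0.01 for all genes. The MGA and empty vector libraries did not overlap for 28 members (53.8%), close to the 52.6% of all genes. MYC itself was at 209.4 and 244.3 TPM in MGA libraries, against 167.4 and 166.8 TPM in empty vector libraries, and its part in these values was not tested. The 2 controls also differed in level. Mean shares of counts with the empty vector and with siNC were 0.847% and 1.111% for hnRNP genes and 0.0746% and 0.108% for the Sm core. They were 0.102% and 0.125% for particle proteins, and closer, at 0.215% and 0.227%, for SR genes. The part of these control levels in the smaller MGA response was not tested.

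HNRNPA1 had the smallest p of the members with MGA. It had 582.1 and 578.3 CPM in MGA libraries, against 981.8 and 916.2 CPM in empty vector libraries. The groups lay far apart, with a log2 fold change of -0.71 (edgeR adjusted p = 2.4e-06, SE 0.09). It was called under all 18 alternatives. HNRNPAB had 213.5 and 167.1 CPM with MGA, against 283.6 and 256.6 CPM with the empty vector, a log2 fold change of -0.49 (adjusted p = 0.015, SE 0.13). HNRNPA3, a close relative of HNRNPA1, had 379.5 and 331.8 CPM with MGA, against 477.0 and 458.1 CPM with the empty vector, a log2 fold change of -0.39 (adjusted p = 0.013, SE 0.10).

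SNRPB was the only Sm core gene called with MGA, at 292.9 and 295.6 CPM in MGA libraries, against 365.8 and 377.7 CPM in empty vector libraries. It changed by a log2 fold change of -0.34 (edgeR adjusted p = 0.046, SE 0.11). The SNRPB call was lost without each of the 4 overexpression libraries, with adjusted p of 0.15 without empty vector A, 0.22 without empty vector B, 0.24 without MGA A and 0.19 without MGA B. The HNRNPA3 call was lost without empty vector A (adjusted p = 0.12), empty vector B (0.062) or MGA B (0.21), and the HNRNPAB call without empty vector A (0.16) or MGA B (0.24). Of the members, only HNRNPA1 kept its MGA call in every such fit. With library sizes alone as the scale, which shifts the median of all genes to -0.12 (log2), 12 members were called lower, beside 7.32% of all genes; with upper-quartile factors 8 were, beside 5.60%.

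Several members came near the MGA threshold without passing. SNRPD1 had 33.8 and 22.2 CPM in MGA libraries, against 46.3 and 46.8 CPM in empty vector libraries, a log2 fold change of -0.70 (edgeR adjusted p = 0.074, SE 0.25). SNRNP70 had a log2 fold change of -0.35 (adjusted p = 0.078). SNRNP27 pointed the other way, at 48.4 and 54.9 CPM with MGA, against 33.6 and 30.0 CPM with the empty vector, a log2 fold change of 0.69 (adjusted p = 0.066, SE 0.24).

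No SR gene passed with MGA in either direction. At an unadjusted p under 0.05, 2 of 12 were lower, beside 1151 of all 11218 genes. SRSF1 had 326.6 and 322.5 CPM in MGA libraries, against 392.5 and 390.9 CPM in empty vector libraries, a log2 fold change of -0.27 (edgeR adjusted p = 0.099, SE 0.10). SRSF6 had 187.0 and 149.5 CPM with MGA, against 215.3 and 203.9 CPM with the empty vector, a log2 fold change of -0.30 (adjusted p = 0.16, SE 0.13); with library sizes alone as the scale it was called lower (adjusted p = 0.035). The lower-expressed of the 2 SRSF8 genes had 3.65 and 0 CPM in MGA libraries, against 10.42 and 2.40 CPM in empty vector libraries. Its log2 fold change of -1.62 rests on few reads and did not pass (edgeR adjusted p = 0.30, SE 0.91). SRSF5 was nearest to no change, at 0.01 (95% interval -0.28 to 0.30), and the family median was 0.02.

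In the other families HNRNPK, SNRPF and SNRPB2 were the members nearest to 0. HNRNPK had 626.8 and 665.9 CPM in MGA libraries, against 615.9 and 660.8 CPM in empty vector libraries, with a log2 fold change of 0.02 (95% interval -0.16 to 0.20). SNRPF had 42.0 and 42.1 CPM with MGA, against 42.8 and 42.0 CPM with the empty vector, with a log2 fold change of -0.01 (95% interval -0.48 to 0.46). SNRPB2 had a log2 fold change of -0.04. Further from 0 were SNRNP200 at -0.16 and SNRPE at 0.38, and neither of them passed. SNRPE, at 63.9 and 65.4 CPM with MGA against 50.9 and 48.0 CPM with the empty vector, was called higher in the limma-trend fit of TPM alone.

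**Figure D3:**
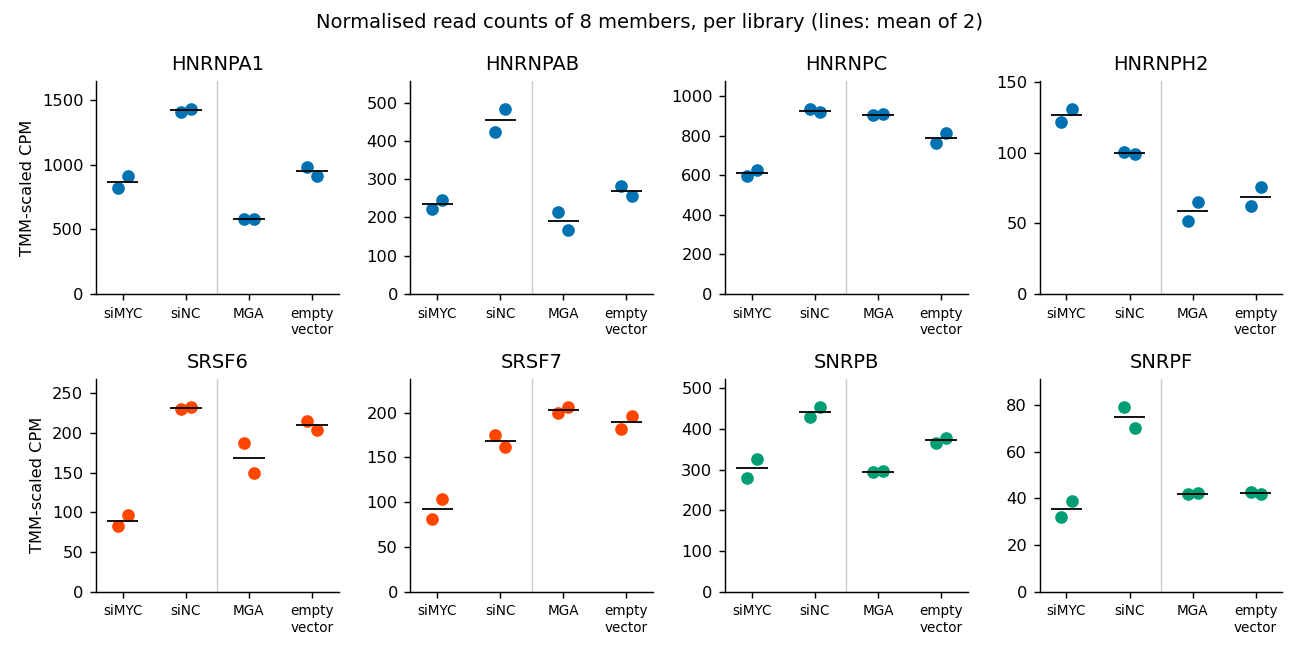
Normalised read counts (TMM-scaled CPM) of HNRNPA1, HNRNPAB, HNRNPC, HNRNPH2, SRSF6, SRSF7, SNRPB and SNRPF in each library, with a line at the mean of 2. HNRNPA1 is lower with siMYC and with MGA than in its own controls, while SNRPF is far below siNC with siMYC and close to the empty vector with MGA; SRSF6 is far below siNC with siMYC, and its MGA points lie below the empty vector points without passing the test.

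The responses to MGA and to siMYC were set against each other in the same fit, as the MGA log2 fold change minus the siMYC log2 fold change. These comparisons share no library. Their controls differed in level, as given above, and the part of that in the differences was not tested. The difference was called above 0 (edgeR adjusted p under 0.05) for 18 of 52 members (34.6%) and below 0 for none. Over all genes, 10.3% were called above 0 and 8.22% below. By sign alone, 7 of the 52 members and 5418 of the 11218 genes were below 0. All 18 called members had fallen with siMYC, but a fall with siMYC by itself raises this difference. The like share over all genes was not counted. The 18 were 10 hnRNP genes, 5 SR genes, the Sm genes SNRPE and SNRPF, and SNRPA1 of U2. The median difference was 0.39 over the members and 0.03 over all genes.

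HNRNPC had the smallest p. It had 598.4 and 628.4 CPM in siMYC libraries, against 935.1 and 916.7 CPM in siNC libraries. It had 905.1 and 906.6 CPM in MGA libraries, against 762.9 and 811.9 CPM in empty vector libraries. The log2 fold change of HNRNPC was thus -0.59 with siMYC and 0.20 with MGA, where the MGA value did not pass (adjusted p = 0.13), and the difference was 0.80 (edgeR adjusted p = 1.1e-05, SE 0.11). The difference for SRSF6 was 1.08 (adjusted p = 9.2e-05, SE 0.18). For SRSF7, at 199.8 and 206.8 CPM with MGA against 181.8 and 196.7 CPM with the empty vector, it was 0.99 (adjusted p = 3.1e-04, SE 0.18).

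Under all 16 alternatives run for this contrast 9 of the 18 stayed called: HNRNPC, HNRNPDL, HNRNPF, HNRNPH1, HNRNPH3, SRSF2, SRSF3, SRSF6 and SRSF7. In the fits that left out 1 library 11 stayed called, with HNRNPA2B1 and SNRPF added. SNRPA1 and SRSF1 lost the call in 8 and 7 of those 8 fits, and the calls of HNRNPD, HNRNPK, HNRNPU and SNRPE were lost in some of them. DESeq2 called 10 members above 0, beside 3.82% of all genes, and scaling by library sizes alone 11, beside 6.36%. HNRNPH2 and HNRNPUL2 had log2 fold changes above 0 with siMYC and below 0 with MGA. Their difference was called below 0 with upper-quartile factors, library sizes alone or the MGA gene left out.

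For HNRNPA1 the log2 fold change was -0.71 in both comparisons, and the difference was 0.00 (edgeR adjusted p = 0.99, SE 0.12). The 4 members called lower with MGA were all called lower with siMYC, 7.69% of the members beside 1.91% of all genes (214) called lower in both. HNRNPAB differed between the responses by 0.47 (adjusted p = 0.047), a call lost in 5 of the 8 fits that left out a library: without empty vector A (adjusted p = 0.065) or B (0.18), MGA A (0.41), siNC B (0.15) or siMYC A (0.13). It was lost as well with RLE factors, upper-quartile factors, library sizes alone, the MGA gene left out or DESeq2 (0.068 to 0.23).

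**Figure D4:**
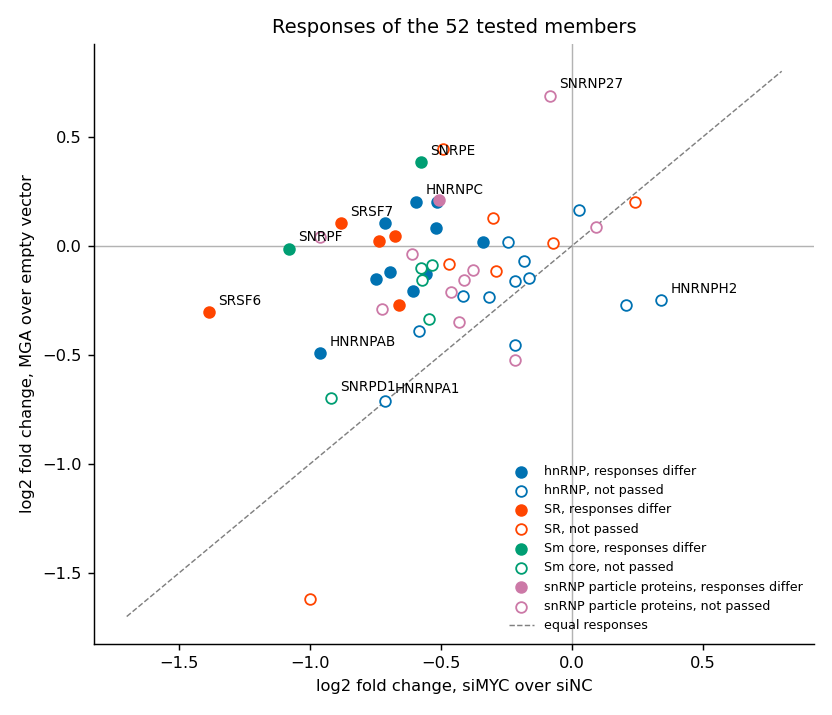
Log2 fold change of each of the 52 tested members with siMYC over siNC (horizontal) and with MGA over empty vector (vertical), coloured by family and filled where the responses differ at an edgeR adjusted p under 0.05; the dashed line marks equal responses. Filled points lie above the line, and HNRNPA1 lies on it.

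Genes that work with the members were counted from lists of known splicing factors, with the same fit. Over all genes in that fit, 20.0% fell and 19.0% rose with siMYC, and 4.0% fell and 4.96% rose with MGA. With siMYC, DESeq2 called 8.97% of all genes lower and the limma-trend fit of TPM 4.78%. Of 12 tested U2 factors, which bind the branch point and the polypyrimidine tract, 9 fell with siMYC. SF3B3 of the SF3B complex fell by 0.78 on the log2 scale (edgeR adjusted p = 5.9e-07, SE 0.10), SF3A3 by 0.75 and U2AF2, which binds the polypyrimidine tract, by 0.54. Of 19 genes of the tri-snRNP and of the PRPF19 complex 13 fell. PRPF8, the largest U5 protein, had 426.0 and 417.3 CPM in siMYC libraries, against 618.0 and 631.5 CPM in siNC libraries, a log2 fold change of -0.57 (adjusted p = 3.7e-06), and PRPF19 and EFTUD2 changed by -0.79 and -0.53. No gene of either list passed with MGA. DESeq2 called 5 U2 factors and 4 tri-snRNP and PRPF19 complex genes lower with siMYC, and a limma-trend fit of TPM called 1 and 0.

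The list of Sm assembly factors held the largest falls with siMYC among these lists and the members. Of its 14 genes 9 were lower (3 in a limma-trend fit of TPM), with a median log2 fold change of -0.61. WDR77 and PRMT5, which together methylate Sm proteins, fell by 1.95 and 1.52 on the log2 scale. WDR77 had 17.5 and 17.8 CPM in siMYC libraries, against 65.7 and 70.6 CPM in siNC libraries (SE of the log2 fold change 0.19, edgeR adjusted p = 4.9e-09). PRMT5 had 53.8 and 51.6 CPM with siMYC, against 129.3 and 171.4 CPM with siNC (adjusted p = 7.5e-09, SE 0.15). GEMIN4 of the SMN complex had 54.2 and 45.4 CPM with siMYC, against 140.7 and 147.0 CPM with siNC, a log2 fold change of -1.52 (adjusted p = 1.1e-09, SE 0.14). With MGA none of the 14 passed, and PRMT5 had 135.9 and 137.9 CPM in MGA libraries, against 116.9 and 158.3 CPM in empty vector libraries.

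Of 6 LSm genes, whose ring binds U6, LSM5 (log2 fold change -0.53) and LSM7 (-0.66) fell with siMYC, and LSM2 (-0.59) did not pass; both calls were lost without siNC replicate B or siMYC replicate A, and that of LSM7 also without siMYC replicate B, and neither was called by DESeq2 or on TPM. Of 8 exon junction genes 3 fell: EIF4A3, the helicase core of the complex, at -0.58, RNPS1 at -0.59 and MAGOHB at -0.62, the call of MAGOHB being lost without siNC B or siMYC A; on TPM none of the 3 was called. The shares called lower with siMYC were 33.3% of the LSm genes and 37.5% of the exon junction genes, beside 20.0% of all genes, in lists of few genes. Of 5 minor spliceosome proteins, 0 passed in either comparison, and at an unadjusted p under 0.05 likewise 0. PDCD7, ZCRB1 and ZMAT5 had siMYC log2 fold changes of 0.39, 0.12 and -0.42.

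Of 11 SR kinases and SR-related genes 4 fell with siMYC (36.4%), beside 20.0% of all genes. Among them were SRPK1, which phosphorylates SR proteins, by 0.90 on the log2 scale (edgeR adjusted p = 8.6e-06, SE 0.14), SRRM1 by 0.65 and TRA2B by 0.35. Without siNC replicate A 2 of the 11 were called, TRA2B no longer among them; its call was also lost without siMYC replicate A. DESeq2 called 2 of the 11 lower and the TPM fit 0. With MGA, SRRM2, a large SR-related matrix protein, fell, and the kinases CLK3 and DYRK1A rose; these 3 are named after their values were seen. CLK3 had 73.9 and 51.4 CPM in MGA libraries, against 32.4 and 36.0 CPM in empty vector libraries (log2 fold change 0.90, adjusted p = 0.015). These calls did not hold without single libraries: that of CLK3 was lost without empty vector A, empty vector B or MGA A, that of DYRK1A without empty vector B, MGA A or MGA B, and that of SRRM2 without empty vector B or MGA B (adjusted p = 0.056 to 0.33). None of the 3 was called on TPM, and DYRK1A was not called by DESeq2.

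Other splicing regulators split by direction with siMYC, with 9 of 19 tested lower (5 with DESeq2 and 3 on TPM) and 6 higher. These shares were 47.4% lower and 31.6% higher, beside 20.0% and 19.0% of all genes. SYNCRIP and PCBP2, both RNA-binding proteins, changed by log2 fold changes of -0.79 and -0.65. The 6 that rose, named after their values were seen, were QKI (0.75), RBFOX2 (0.67), PTBP3 (0.42), RALY (0.37), MBNL1 (0.34) and KHDRBS1 (0.26). The call of RALY was lost without siNC A or siMYC A, that of MBNL1 without siNC B or siMYC B, and that of KHDRBS1 without each of the 8 libraries in turn, while QKI, RBFOX2 and PTBP3 stayed called in all of these fits. DESeq2 called 3 genes of the list higher and the TPM fit 2. PTBP3 thus had 614.5 and 514.3 CPM with siMYC, against 432.9 and 414.0 CPM with siNC, while its paralog PTBP1 had 313.0 and 332.0 CPM with siMYC, against 442.9 and 501.5 CPM with siNC. With MGA, 1 gene of this list passed: TARDBP, also named after its values were seen, fell by 0.56 on the log2 scale (adjusted p = 0.010), a call lost without empty vector A, MGA A or MGA B, with DESeq2 (adjusted p = 0.060) and on TPM.

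**Figure D5:**
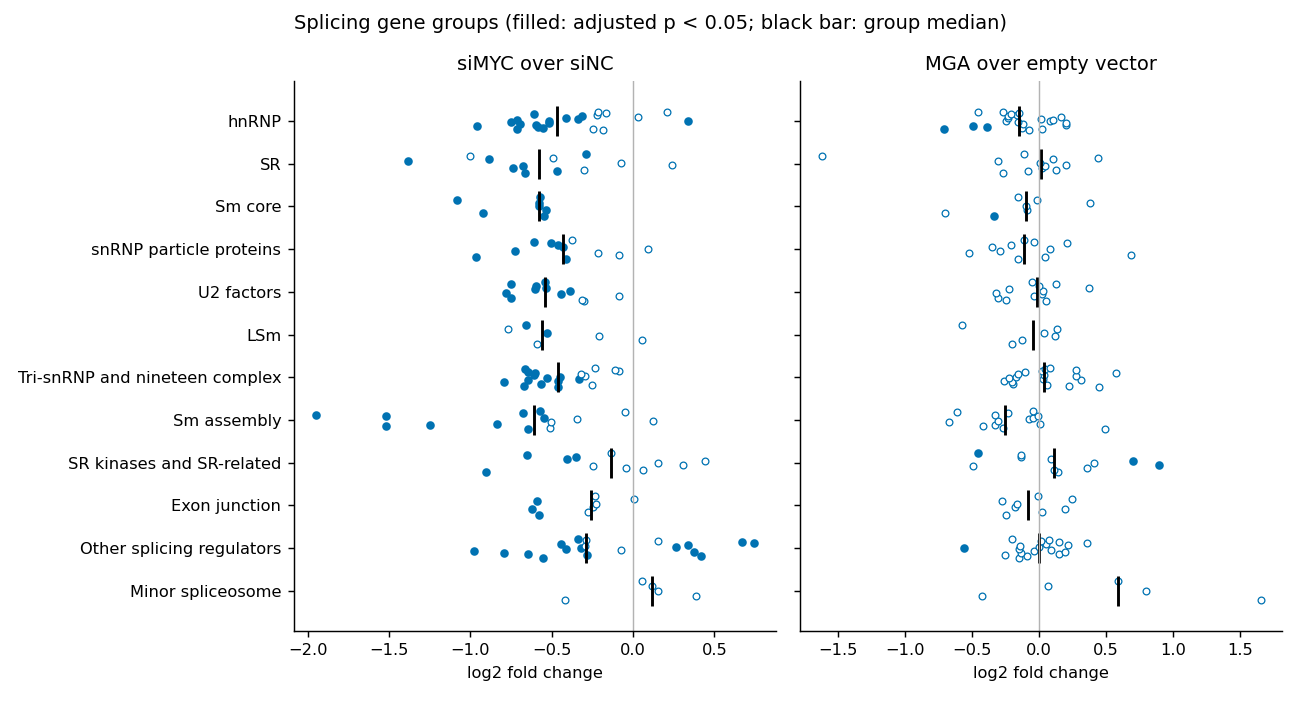
Log2 fold change of each tested gene in the 4 member families and 8 further splicing lists, with siMYC over siNC on the left and MGA over empty vector on the right; filled points have an edgeR adjusted p under 0.05 and black bars are group medians. The siMYC medians are below 0 in all groups but the minor spliceosome, and few points are filled on the right.

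Many splicing factors control their own mRNA through alternative exons, so the mean transcript length of each member, which RSEM weights by isoform abundance, was compared as a coarse readout of isoform use. Of 47 members with several transcripts and varying length, 0 passed in either comparison (limma). Over all 10361 genes tested, 0% passed with siMYC, where 445 genes had an unadjusted p under 0.05, and 0.00965% with MGA, where 849 did. At an unadjusted p under 0.05 there were 0 members with siMYC and 2 with MGA. Log2 length ratios of the members ran between -0.21 and 0.18 with siMYC and between -0.47 and 0.23 with MGA. The smallest p with siMYC were those of HNRNPH3 (log2 ratio -0.16, limma adjusted p = 1), HNRNPA3 (0.17) and HNRNPF (-0.09). With MGA they were those of HNRNPUL1 (-0.47, adjusted p = 0.42), SNRPE (-0.36) and SNRPD1 (-0.25). At this depth no difference in mean transcript length was detectable for the members.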

How the data were processed

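RNA from A549 cells was measured by poly(A)-selected RNA-seq in 8 libraries. Per the submitters' processing notes, reads were processed with STAR and RSEM on build hg19; the sources used here give no versions and no strand setting. Per the file headers, the authors deposited for each gene an expected count (RSEM divides reads that fit several genes), a TPM value (scaled for length and library), a transcript length and an effective length averaged over isoforms, and FPKM, which was not used. No hg19 coordinates are printed; promoter positions are those of the RefSeq table. Overlapping and near-identical genes are uncertain; pseudogenes held up to 3.93% of the counts of HNRNPA1 and at most 1.29% of those of other members.

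Expected counts were rounded, filtered with filterByExpr (minimum count 10, minimum total 15), scaled by TMM and fitted jointly in edgeR 4.0.16 (R 4.3.3) over the 4 groups (quasi-likelihood F test, two-sided, Benjamini-Hochberg over 11218 genes). CPM values are TMM-scaled. SE is the log2 fold change over the square root of F. Log2 length was tested with limma 3.58.1. Replicates differed by more than counting noise (chi-square per degree of freedom 1.12 to 1.86), but separate cultures are not stated, and the p-values then cover only the spread among these libraries, which may be technical. Scripts were tested on simulated data.

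Pseudogenes were left out as symbols ending in P and digits (158 of 214), which would also drop SNRNP70 and 6 like symbols; these 7 were kept because the rule names SNRNP genes. Members, families and lists were chosen with earlier results of these data known. Genes were named by rule: per comparison and family the 3 smallest p and the log2 fold change nearest 0, the 3 smallest p of the difference and of each list, calls against the majority, and untested members; others complete their family. Some list genes are counted in their lists but not reported here singly. Alternatives were other size factors (RLE, upper quartile, library sizes), no filter, no MGA gene, DESeq2 1.42.0, limma-trend on log2(TPM + 1), each experiment alone, a replicate block, each library left out and, added after seeing the data, pseudogene counts added to the parent gene.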

Additional observations from a re-analysis of the deposited data

How the results depend on the processing

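Single-gene results of the tested members and of most list genes, including genes not named here, were compared between the main fit and each alternative. Of these pairs of result and alternative, 5627 stayed on their side of the threshold, 295 lost a call and 47 gained one. Many that stayed had no call in the main fit, and a call can be lost only where there was one. Of the list counts, 530 stayed within 1.5 times and 46 did not. With siMYC, 32 members were called in all 16 edgeR alternatives and 15 in all 18. Counts of members lower with siMYC (35) were 32 to 35 when a library was left out and 16 with limma-trend on log2(TPM + 1), where the median of all genes moved to 0.14 and that of the members was -0.34. On TPM the falls were 8 hnRNP, 4 SR, 3 Sm core and 1 particle gene, and with DESeq2 4 Sm core and 2 particle genes. The single rise (1) was 0 with no filter, DESeq2 or TPM, and 0 to 1 when a library was left out. In the fits that left out a library, the Sm core, SR and particle falls were 6 to 7 each.

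Members lower with MGA (4) were 8 with upper-quartile factors, 12 with library sizes alone, 7 with the overexpression libraries alone, 1 on TPM and 1 to 4 when a library was left out. By family, hnRNP falls were 7 with library sizes alone, 1 on TPM and 1 to 3 with a library left out; SR falls 1 with upper-quartile factors, 2 with library sizes alone and 1 in the experiment alone. Sm core falls were 2 with upper-quartile factors and 2 with library sizes alone, 0 with no filter, DESeq2 or TPM, and 0 to 1 with a library left out. Particle falls were 1 with upper-quartile factors, library sizes alone and the experiment alone. Member rises were 1 on TPM, the Sm core gene SNRPE. Library sizes alone moved the median of all genes with MGA to -0.12, and the split of all calls to 821 lower and 300 higher, against 449 and 556; it was 628 and 387 with upper-quartile factors.

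For the difference, members above 0 (18) were 11 with library sizes alone, 10 with DESeq2 and 13 to 17 with a library left out. These counts, above or below 0, are of members called at an adjusted p under 0.05. The hnRNP count was 5 with library sizes alone and 6 with DESeq2. The Sm core count was 0 with DESeq2 and 1 to 3 with a library left out. The particle count was 0 with upper-quartile factors, library sizes alone, no filter, no MGA gene or DESeq2, and 0 to 1 with a library left out. Members below 0 were 2 with upper-quartile factors, 2 with library sizes alone, 2 with no MGA gene, and 0 to 1 with a library left out. The cause of these changes was not tested. A lone library left in a group was assumed to vary like the other groups. Adding pseudogene counts changed no member call.

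The letters A and B give only 2 pairs an experiment; deviations of same-letter libraries correlated at -0.02 (MGA with empty vector) and 0.13 (siMYC with siNC), so the letters were not taken to pair samples. With a replicate block, 37 members were called with siMYC (36 shared), 4 with MGA and 18 in the difference, and no mean transcript length. With 820428 to 2129006 counts a library, genes of a few CPM, such as SRSF8 and SNRNP35, have wide intervals.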
